A study of Homo sapiens with 8 samples.

Results

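The genes described here are the MYC family and its partners: the MYC paralogs MYC, MYCN and MYCL, their obligate partner MAX, and the other proteins that pair with MAX, namely MGA, MXD1, MXD3, MXD4, MXI1 and MNT. They were chosen by name as a known protein network, with earlier results of these data known. They are 10 of the 20163 protein-coding genes of the annotation. G4 ChIP-seq, in which an antibody to G-quadruplexes (G4s) pulls down chromatin, was performed in 2 untreated human cell lines, K562 (chronic myelogenous leukemia) and HepG2 (hepatocellular carcinoma). The labels give 3 G4 ChIP libraries, called technical replicates in the design, and 1 input library for each line. The data are 4 lists of genome intervals on hg19. The high-confidence list of K562 holds stretches that 5 or more of 8 replicates called, and that of HepG2 those that 6 or more of 9 called. A lower-confidence list for each line, which contains the former, needs 2 replicates. For each gene the intervals in its body and in the 2 kb upstream of any of its annotated starts were listed.

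G4s are stacked structures that guanine-rich DNA strands can fold into, and they are mapped in chromatin mostly at promoters. MYC is a transcription factor that drives growth and division, and it binds DNA only as a pair with MAX, at the E-box CACGTG. The MXD proteins, MXI1, MNT and MGA compete for MAX and recruit repressors to the same sites, so that the balance within this network sets the output of MYC target genes. The guanine-rich stretch upstream of the MYC start is among the best studied G4s in vitro.

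The lists carry positions only. They give no read depth, peak height or replicate, so a gene either has an interval in a list or has none, and no test between the lines could be made. Absence from a list says that the stretch was not called in enough replicates, not that no G4 forms there. Each count below is set beside the share of all protein-coding genes with the same property, as a description. A G4 motif here is a sequence in which 4 runs, each of 3 or more G, are separated by loops no longer than 7 bases, and both strands were searched.

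MYC itself had no high-confidence interval in either line, while most of its partners had one. In K562, 7 of the 10 genes held a high-confidence interval (MYCL, MAX, MGA, MXD1, MXD3, MXD4 and MNT), against 38.3% of protein-coding genes. In HepG2, 4 of the 10 did (MAX, MXD1, MXD4 and MNT), against 34.9%. These 4 genes had one in both lines, as did 26.6% of protein-coding genes. No gene of the network had a high-confidence interval in HepG2 without one in K562. In the lower-confidence lists, 9 of the 10 genes had an interval in K562, against 54.3% of protein-coding genes, and 8 in HepG2, against 58.2%.

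The paralogs and the partners fell into 5 of the possible combinations. MGA and MXD3 were high-confidence in K562 and lower-confidence only in HepG2, a combination shared by 8.75% of protein-coding genes. MYCL was high-confidence in K562 and absent from both HepG2 lists, as were 2.91%. MYC and MXI1 had lower-confidence intervals alone in both lines, as had 6.85%. MYCN had no interval in any list, as 34.7% of protein-coding genes had none. No member was lower-confidence in K562 with a high-confidence HepG2 interval (5.01% of protein-coding genes) or with none in HepG2 (4.18%), and no member was absent from K562 with a high-confidence (3.25%) or a lower-confidence interval alone (7.71%) in HepG2.

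**Figure D1:**
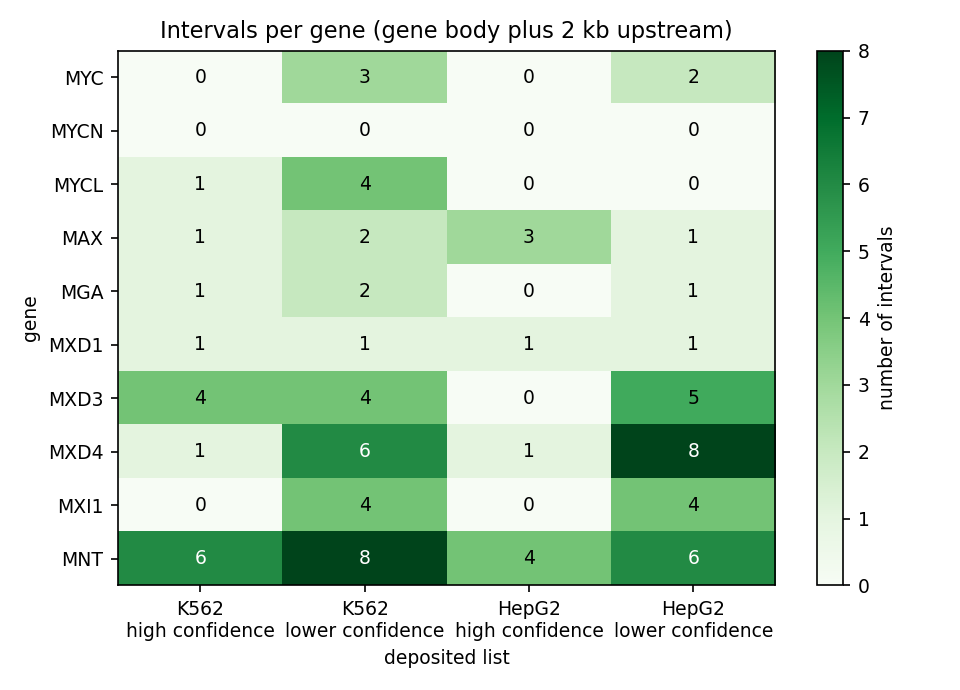
Number of intervals per gene (rows) in each of the 4 lists (columns), counted in the gene body plus 2 kb upstream of its starts, with darker green for more intervals. MYCN is at 0 in all lists, MYC has 3 and 2 lower-confidence intervals and no high-confidence one, and MNT has 6 high-confidence intervals in K562 and 4 in HepG2.

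Gene length differed widely within the network. The window searched was 9.52 kb for MYC, 8.46 kb for MYCN and 8.83 kb for MYCL, all below the median of 29.2 kb over protein-coding genes, and it reached 98.5 kb for MAX and 154 kb for MGA. Of the high-confidence intervals, 11 of the 15 in K562 and 8 of the 9 in HepG2 touched the 1 kb upstream of a start. The same share over the intervals of all genes is not given here. Genes with many starts have more sequence counted as near one, and MNT, with 9 starts, held 6 of the 15 and 4 of the 9. On the narrower window of 1 kb upstream, 6 genes had a K562 high-confidence interval, against 34.6% of protein-coding genes, and 4 had a HepG2 one, against 29.6%. With the lower-confidence lists these were 9 genes in K562, against 48.5%, and 8 in HepG2, against 48.9%. MGA was the gene lost, because its K562 interval lies downstream of the start.

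At the MYC promoter the intervals flanked the known G4 stretch without covering it. MYC lies on the plus strand of chromosome 8, from 128747680 to 128755197, with 14 annotated starts, and its canonical start is at 128748477. The oligomer of the MYC G4 folded in vitro in the study matched best at chr8:128748176-128748197 on the minus strand, the template strand of the gene, with 3 mismatches in its 22 bases outside the tail, and the next best place in the same window had 5. Its centre lies 291 bp upstream of the canonical start. A complete G4 motif of 31 bp, from 128748169 to 128748199, covers that site. The HepG2 lower-confidence interval at chr8:128748217-128748488 begins 18 bp past the end of this motif. The K562 lower-confidence interval at chr8:128748306-128748517 begins 107 bp past it. By position, both therefore lie on the side of the canonical start and share no base with the G4 site. Whether interval edges can tell places this close apart was not tested.

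MYC had 7 G4 motifs within 1 kb of its starts, more than 83.4% of protein-coding genes, and none of the 7 touched an interval of any list. Most such motifs near protein-coding genes lay outside intervals too. The lower-confidence lists touched 11.9% of them in K562 and 9.45% in HepG2, and the high-confidence lists 6.75% and 3.83%. Of the 7 MYC motifs, 4 were on the template strand and 3 on the coding strand. An upstream pair of intervals, chr8:128747465-128747622 in K562 and chr8:128747449-128747641 in HepG2, was centred 934 and 932 bp upstream of the canonical start. The nearest motif to that pair ended 36 bp before the K562 interval and 20 bp before the HepG2 one. A short K562 interval of 54 bp, at chr8:128748549-128748602, ended 14 bp before a further motif.

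All 5 MYC intervals held at least 1 motif with runs of 2 or more G, although none held a complete G4 motif. Such 2 G motifs were common, in 87.6% of all K562 and 76.7% of all HepG2 lower-confidence intervals. Lacking a complete motif was usual for intervals of their width: of the lower-confidence intervals within 20 percent of the same width, between 4.58% and 25.5% held one. The MYC intervals were 61.7% to 68.5% GC. The lines shared 2 of the 3 K562 places, since 100.0% of the upstream K562 interval and 86.3% of the K562 interval at the start lay in HepG2 lower-confidence intervals. The short K562 interval of 54 bp shared no base with a HepG2 interval. The nearest high-confidence interval lay 821 kb from the canonical start in K562 and 819 kb in HepG2.

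**Figure D2:**
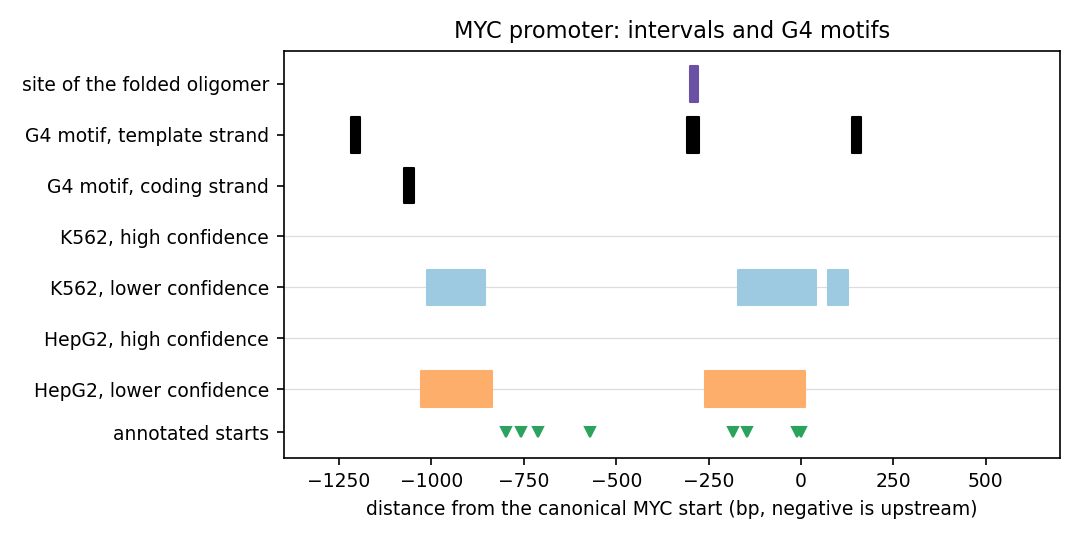
Intervals of the 4 lists (coloured bars), G4 motifs on each strand (black), the site of the folded oligomer (purple) and the annotated starts (green triangles) by distance from the canonical MYC start in bp. The lower-confidence intervals of both lines sit beside the motifs, with gaps of 18 bp (HepG2) and 107 bp (K562) after the motif that holds the oligomer site, and both high-confidence rows are empty.

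The other paralogs differed from MYC and from each other. MYCN, which drives growth in neural precursors and is amplified in neuroblastoma, had no interval within 297 kb of its canonical start in any list. The nearest was a HepG2 lower-confidence interval at that distance, and the nearest K562 one was 321 kb away. MYCN was not without motifs. Within 1 kb of its annotated starts lay 3, all downstream of the canonical start, centred 138, 2001 and 2659 bp from it, and the latter pair counted through an inner start. The motif in the MYCN intron, on the coding strand at chr2:16083319-16083344, and the one at chr2:16082660-16082686 are printed because they are complete motifs that no list covers (capitals mark the runs of G).
MYCN intron: GGGtGGGGGtttaGGGGGttgctGGG
MYCN upstream of it: GGGtcgcGGGcacggcGGGGctgcGGG

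MYCL, the paralog first found in lung cancer, had a high-confidence interval in K562 and no interval in HepG2. Its K562 high-confidence interval, chr1:40367479-40367793, was 315 bp wide with its centre 47 bp upstream of the canonical start, and 75.9% GC. It held the G4 motif at chr1:40367722-40367745, on the plus strand and so the template strand of this minus-strand gene. The surrounding K562 lower-confidence interval of 484 bp held another motif on the opposite strand, at chr1:40367446-40367469. They are printed to show the K562 motifs that no HepG2 list covers (capitals mark the runs of G).
MYCL template strand: GGGacccaGGGactGGGGGGcGGG
MYCL coding strand: GGGtggccaGGGcacGGGcgcGGG

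In HepG2 the nearest lower-confidence interval to the MYCL start lay 18.3 kb away and the nearest high-confidence one 139 kb away. K562 had 4 lower-confidence intervals at MYCL, of which 2 were centred 788 and 1035 bp downstream of the canonical start and 1 was 4 bp wide. MYCL was the only member called with high confidence in one line and absent from both lists of the other. Since a list needs at least 2 replicates, a call in a single HepG2 replicate would not be seen here.

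MAX, the common partner of the network, was called at its promoter in both lines. The K562 high-confidence interval, chr14:65569294-65569356, was 63 bp wide and lay wholly inside the 186 bp HepG2 interval, chr14:65569204-65569389. HepG2 had 2 further high-confidence pieces upstream, of 102 bp and 4 bp. None of these high-confidence intervals held a complete G4 motif. Most of like width lacked one too: 8.29% held one in K562, and from 0.0% to 19.4% in HepG2. MAX had 5 G4 motifs within 1 kb of its starts. Of these, 1 touched an interval, the 571 bp HepG2 lower-confidence interval that covers the canonical start. The motif nearest to the K562 high-confidence interval ended 88 bp from it.

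An E-box CACGTG, the sequence that MAX pairs bind, lay 346 bp upstream of the canonical MAX start at chr14:65569579-65569584. It is printed with 12 bases on each side, read on the gene's minus strand (capitals mark the E-box, which reads the same on both strands).
MAX E-box: tccagctccctcCACGTGtcctgtcttccc

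This E-box sat in the 102 bp HepG2 high-confidence piece and in the lower-confidence intervals of both lines, and outside the K562 high-confidence interval. Among HepG2 high-confidence intervals of a width like that of this piece, 4.54% held an E-box. The 186 bp HepG2 high-confidence interval at the start also held an E-box, as did 8.71% of those of like width. Over whole lists, 8.66% of K562 and 7.95% of HepG2 high-confidence intervals held one. Among the other members, an E-box lay in a high-confidence interval of MXD4 and MNT in both lines, and of MXD3 in K562, there in the interval beside the RAB24 start.

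**Figure D3:**
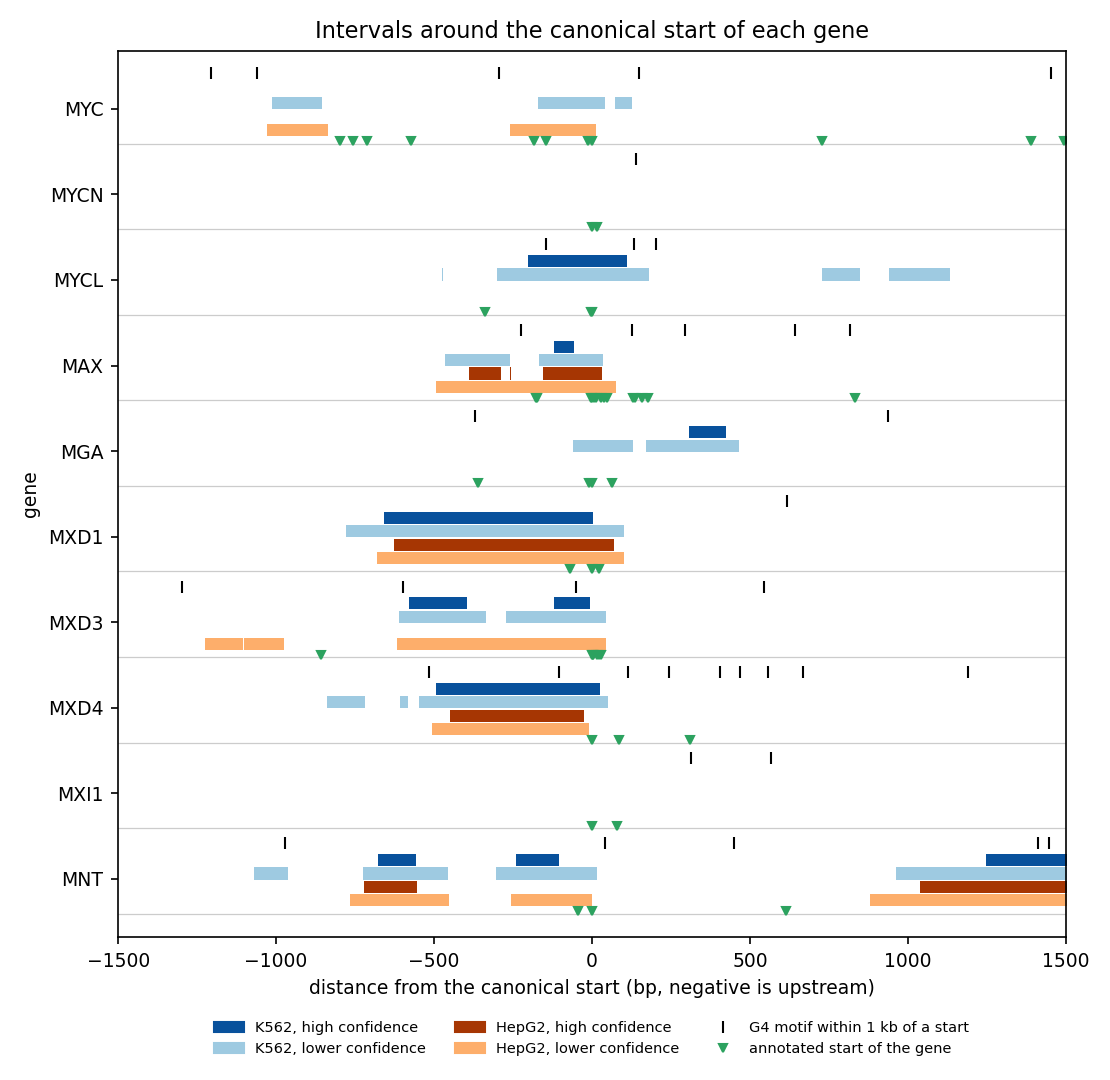
Intervals (bars, 4 lists per gene), G4 motifs within 1 kb of any start of the gene (black ticks) and annotated starts (green triangles) within 1.5 kb of the canonical start of each gene, by distance in bp. Intervals of both lines lie at or just beside the canonical starts of MAX, MXD1, MXD4 and MNT, MYCL has K562 bars alone, and MYCN and MXI1 have none here.

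MXD1, which is induced as blood cells differentiate and opposes MYC, had the widest intervals of the network and no G4 motif in them. The K562 high-confidence interval, chr2:70141583-70142244, was 662 bp wide, and the HepG2 one, chr2:70141614-70142311, was 698 bp. At least this wide were 57 of 9205 K562 and 25 of 8805 HepG2 high-confidence intervals. The lines shared 631 bp, or 95.3% of the K562 and 90.4% of the HepG2 interval. Among high-confidence intervals of like width, 75.8% in K562 and 72.6% in HepG2 held a complete G4 motif, and MXD1 was among those that did not. Its GC share of 63.6% in K562 was below that of most intervals of this width, since 6.21% of them had less.

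The shared 631 bp of MXD1 held 18 runs of 3 or more G and 12 of C, spaced too widely for loops of up to 7 bases. With loops of up to 12 bases, MXD1 counted as holding a motif in both lines, which raised the number of genes with a motif in a high-confidence interval to 5 in K562 and 3 in HepG2. The 200 bases at chr2:70141830-70142029 are from the plus (coding) strand in the middle of the shared stretch. They hold only some of the 18 G and 12 C runs, and no motif with loops of up to 12 bases. They are printed as an example of runs too far apart for loops of up to 7 bases (capitals mark runs of 3 or more G or C).
MXD1 core: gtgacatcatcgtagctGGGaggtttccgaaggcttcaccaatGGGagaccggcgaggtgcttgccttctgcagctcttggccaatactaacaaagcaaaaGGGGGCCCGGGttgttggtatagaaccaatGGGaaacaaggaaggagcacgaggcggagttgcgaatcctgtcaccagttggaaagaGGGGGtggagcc

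MXD4, another MAX-binding repressor, had 1 wide promoter interval in each line, and here a motif was present. The HepG2 interval, chr4:2263862-2264285, of 424 bp, lay wholly inside the K562 interval, chr4:2263811-2264329, of 519 bp. They were 70.8% and 71.5% GC. Both covered the motif at chr4:2263926-2263952, 103 bp upstream of the start on the template strand. A neighbouring motif, at chr4:2264342-2264362, missed the K562 interval by 13 bp and the HepG2 one by 57 bp, and was covered by the K562 lower-confidence interval. The pair is printed to set a motif called in both lines beside one that was not (capitals mark the runs of G).
MXD4 called in both lines: GGGGGcGGGcgccGGGccGGGctGGGG
MXD4 beyond the high-confidence intervals: GGGccGGGccGGGccgccGGG

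Of the 10 motifs near MXD4 starts, more than at 91.3% of protein-coding genes, the called one was thus the only one in a high-confidence interval. The 8 motifs downstream of the canonical start were in no interval of any list. In HepG2, 7 further lower-confidence intervals lay inside the gene, from 11 to 242 bp wide, and 6 of them were intronic.

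MXD3, a repressor of the same family expressed in dividing cells, had 4 high-confidence intervals in K562 and none in HepG2. Each of the 4 overlapped a HepG2 lower-confidence interval, and 3 lay wholly inside one. The K562 places were thus also called in HepG2, but in fewer than 6 of 9 replicates. The interval at the start, chr5:176738905-176739020, was 116 bp wide and 75.9% GC, and held the coding-strand motif at chr5:176738935-176738962, 49 bp upstream of the canonical start. The next, centred 488 bp upstream of the start, stopped 5 bp short of another motif, and another of only 20 bp lay in an intron. The last, chr5:176730692-176730814, is inside MXD3 but its centre is 8 bp from a start of RAB24, a gene that overlaps this end of it, so this interval cannot be assigned to MXD3 alone. The motifs at the start and at the RAB24 end are printed because both lines covered them at different confidence (capitals mark the runs of G).
MXD3 start: GGGcGGGGcgtcccGGGGGcGGGGcGGG
MXD3 at the RAB24 start: GGGaGGGGGctagaGGGcgaGGGGG

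MXI1, the repressor also known as MXD2, had the most motifs of the network and no high-confidence interval. There were 19 motifs within 1 kb of its 37 starts, more than at 98.2% of protein-coding genes, and 14 of them were on the coding strand. Of protein-coding genes with 10 or more such motifs, 57.8% had a high-confidence interval in K562 and 48.0% in HepG2. The canonical start of MXI1 was bare in all lists, with the nearest interval 3.64 kb away in K562 and 3.70 kb in HepG2, both lower-confidence. The intervals gathered further downstream, where 32 of the 37 starts lie between 17 and 21 kb from the canonical one. There the K562 lower-confidence interval chr10:111986426-111986871, of 446 bp, held 5 motifs, 44 runs of 3 or more G on the plus strand and no run of 3 or more C. HepG2 had 2 intervals over the same stretch, of 229 and 238 bp, which held 2 motifs each.

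Several of the MXI1 motifs at these inner starts were near copies of each other, and others there had different loops. The first of those below, at chr10:111986244-111986267, occurs with the same letters at chr10:111986298-111986321 and chr10:111986335-111986358, and none of these 3 copies was in an interval of any list. The others, at chr10:111986679-111986703 and chr10:111986829-111986852, were in the K562 lower-confidence interval, and HepG2 lower-confidence intervals also touched both. They were chosen after their letters were seen and are printed because called and uncalled ones are so alike (plus strand, the coding strand, capitals mark the runs of G).
MXI1 uncalled, 3 copies: GGGGaGGGGcgtgtgaGGGaGGGG
MXI1 called: GGGGaGGGGcgtgtgaGGGGaGGGG
MXI1 called, further on: GGGGaGGGGcgtgtgaGGGGaGGG

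How well reads map within such a repeated stretch was not tested.

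MNT, a MAX partner present in most cells that represses MYC targets, had the most intervals: 6 high-confidence ones in K562 and 4 in HepG2. All 4 HepG2 intervals overlapped a K562 one. Shared by the lines were the interval 637 bp upstream of the canonical start (chr17:2304908-2305075 in HepG2), that 1291 bp downstream of it in an intron (chr17:2302811-2303316), that at an inner start (chr17:2300095-2300412) and that furthest downstream (chr17:2296046-2296182). The K562 interval next to the canonical start, chr17:2304459-2304594, was lower-confidence in HepG2. The remaining one, chr17:2297120-2297313, was in no HepG2 list. It was 194 bp wide and 83.5% GC, above 97.9% of K562 high-confidence intervals of like width.

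MNT had 18 motifs within 1 kb of its 9 starts, more than at 98.0% of protein-coding genes. Of these, 6 were in K562 and 4 in HepG2 high-confidence intervals, and the 4 were among the 6. The K562 interval absent from HepG2 held 2 motifs on the plus strand, the template strand of MNT, at chr17:2297220-2297248 and chr17:2297254-2297283. Both are printed with a pair called in both lines, at chr17:2296090-2296115 and chr17:2302898-2302917 on the coding (minus) strand (capitals mark the runs of G).
MNT K562 only: GGGaGGGaggcgcGGGGGagccgccGGGG
MNT K562 only, next: GGGcGGGGcGGGGcgcggccGGGGGaGGGG
MNT both lines, inner start: GGGcagccGGGaGGGGcGGGGccGGG
MNT both lines, intron: GGGttGGGcctGGGcccGGG

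MGA, the largest MAX partner, which also carries a T-box domain, was called at different starts in the 2 lines. In K562 the high-confidence interval, chr15:41952909-41953026, lay 364 bp downstream of the canonical start in an intron, and a lower-confidence interval, chr15:41952544-41952732, covered that start. In HepG2 the only interval, lower-confidence, was chr15:41913616-41913764, at a start 38913 bp upstream of the canonical one. The lines shared no base at MGA. None of the MGA intervals held a G4 motif, while between 10.8% and 38.1% of intervals of like width in the same lists did. All 5 motifs near its starts were outside every list, as were most motifs near protein-coding genes. The motif at chr15:41952222-41952245, 10 bp upstream of an annotated start on the coding strand, is printed as one that neither line called (capitals mark the runs of G).
MGA uncalled: GGGtGGGGctGGGcgcggccGGGG

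**Figure D4:**
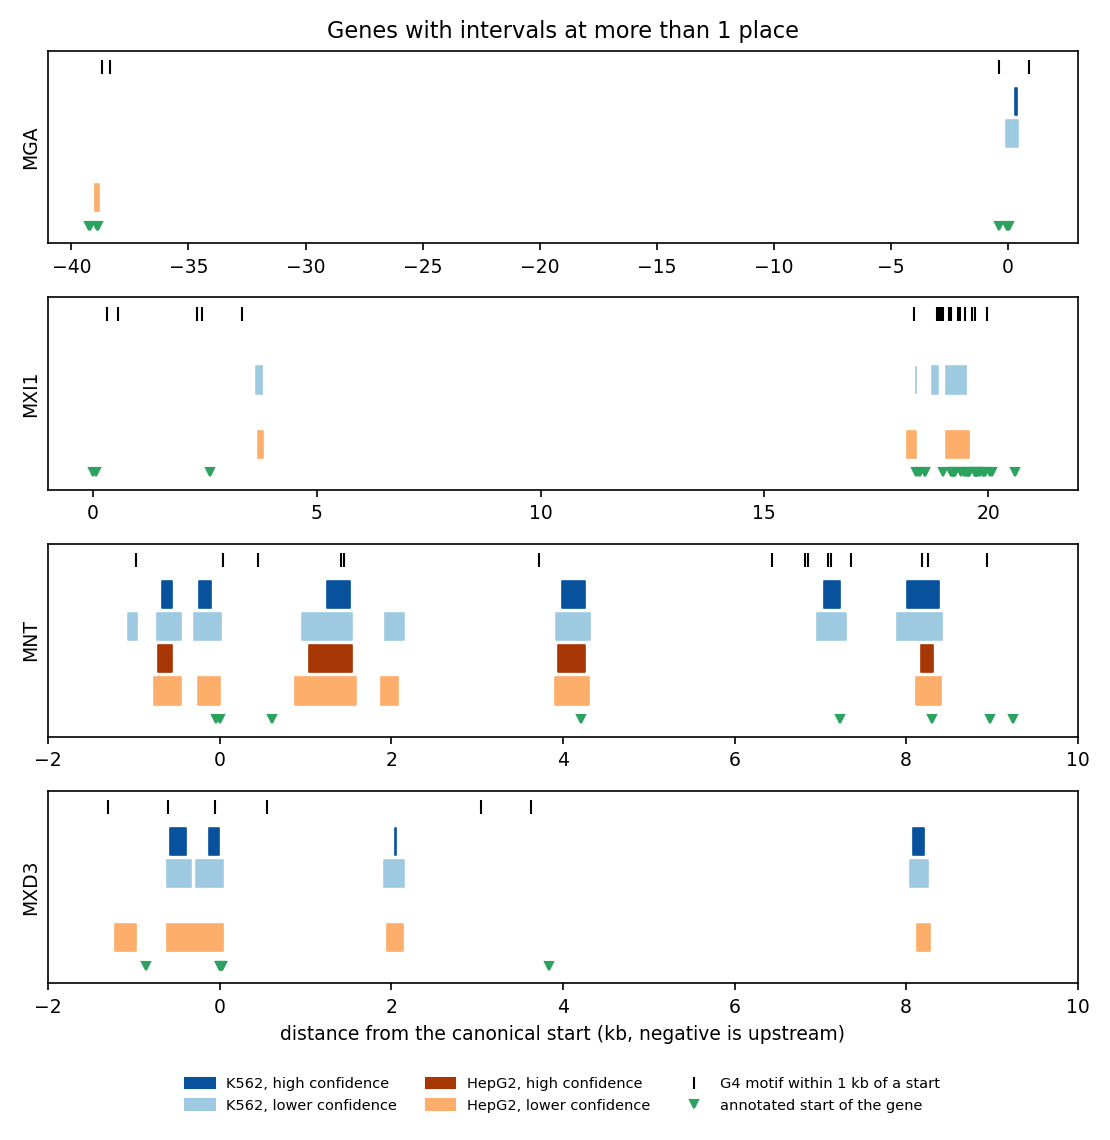
Intervals (bars), G4 motifs within 1 kb of a start (black ticks) and annotated starts (green triangles) of MGA, MXI1, MNT and MXD3, by distance from the canonical start in kb. MGA has a HepG2 interval at its far upstream start and K562 intervals at the canonical one, MXI1 intervals gather near the inner starts, 17 to 21 kb downstream of the canonical one, and each MXD3 place with a dark blue K562 bar has a light orange HepG2 bar.

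Across the network, having motifs near the start and having an interval there did not always go together. A complete motif lay inside a K562 high-confidence interval of 4 genes (MYCL, MXD3, MXD4 and MNT), against 15.2% of protein-coding genes, and inside a HepG2 one of 2 (MXD4 and MNT), against 9.64%. Of the 15 K562 high-confidence intervals 7 held one, and of the 9 in HepG2 3 did. Over the whole lists these shares were 32.6% and 20.6%. Of the 78 motifs within 1 kb of a start of the 10 genes, 9 overlapped a K562 high-confidence interval (11.5%, 95% Wilson interval 6.19% to 20.5%) and 5 a HepG2 one (6.41%, 2.77% to 14.1%). These intervals cover the counting of motifs only, and motifs of 1 gene are not independent. Over the motifs near all protein-coding genes the shares were 6.75% and 3.83%. MNT supplied 6 of the 9 and 4 of the 5. Counted near the starts of protein-coding transcripts alone, the shares over the 10 genes were 5.45% and 1.82%. No share over all protein-coding genes is given for that count, and the 6.75% and 3.83% include all transcripts.

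The share of protein-coding genes with an interval rose with the number of motifs near their starts, from 19.0% at 0 motifs to 57.8% at 10 or more for the K562 high-confidence list and up to 48.0% for HepG2. Genes with more starts also had more sequence searched for motifs and intervals alike, and this was not separated here. MYC, with 5 to 9 motifs, belonged to a class of which 49.5% had a K562 and 41.6% a HepG2 high-confidence interval. MXD1, with 2 motifs, was called with high confidence in both lines, and MXI1, with 19, in neither. Other members went with the rise: MXD4, with 10, and MNT, with 18, were called with high confidence in both lines. MYCN, with 3, was in no list. The median was 5.5 motifs over the 10 genes and 2.0 over all protein-coding genes.

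**Figure D5:**
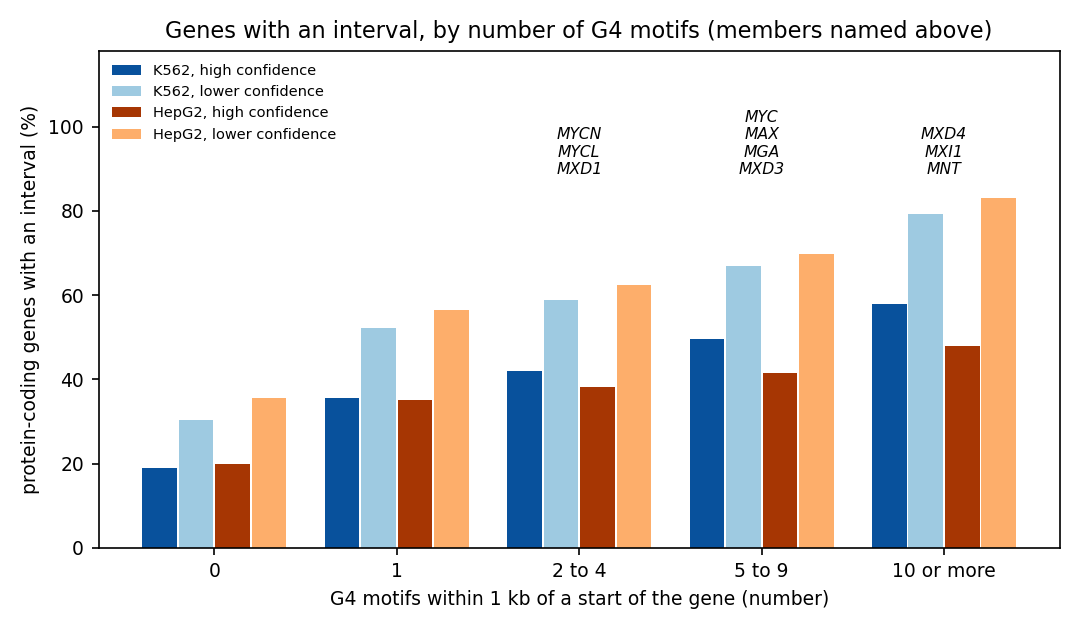
Percent of protein-coding genes with an interval in each of the 4 lists (bars), by the number of G4 motifs within 1 kb of a start, with the genes of the network named above the class they belong to. The bars of the K562 high-confidence list rise from 19.0% to 57.8%, and MYC, MAX, MGA and MXD3 share the class of 5 to 9 motifs.

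Genes that act with the network were looked at in the same way, over the 1 kb upstream of their starts. The MLX branch is a parallel network of nutrient sensors, in which MLX takes the place of MAX. MLX and the glucose-responsive MLXIPL were high-confidence in both lines, and MLXIP was high-confidence in K562 and lower-confidence in HepG2. The MLXIP calls were at different places, chr12:122516366-122516702 in K562 and chr12:122613498-122613560 in HepG2. At MLX the K562 interval chr17:40718942-40719117 and the HepG2 interval chr17:40718970-40719144 overlapped just upstream of the start. MLXIPL, which encodes ChREBP and is most active in liver, had 3 high-confidence intervals in HepG2 and 1 in K562 when the gene body was included.

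Of 13 coactivators and corepressors of the network, 9 had a K562 high-confidence interval and 4 had one in both lines, for example the deacetylase HDAC1. All 7 genes of MYC turnover and stability had one in K562 and 6 had one in both, for example the kinase AURKA, with the ubiquitin ligase HUWE1 lower-confidence in HepG2. Of 12 classic MYC target genes, 7 had one in K562 and 6 in both, for example CDK4, a kinase of the cell cycle. The pyrimidine synthesis gene CAD was the target with a high-confidence interval in K562 and no interval of either HepG2 list. The corepressor SIN3B and the target NME1 had no interval of any list within 1 kb upstream, as had 43.5% of protein-coding genes. The counts with a high-confidence interval stand beside 34.6% (K562), 29.6% (HepG2) and 23.4% (both) of protein-coding genes.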

How the data were processed

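G4 ChIP-seq intervals of K562 and HepG2 cells were analysed. Per the authors' methods, reads were trimmed (cutadapt), mapped to hg19 (BWA) and cleared of duplicates (Picard, samtools). MACS2 then called peaks for every replicate, with a q-value limit of 0.05, and bedtools multiinter combined 8 K562 and 9 HepG2 replicates. The 4 deposited lists hold interval starts and ends in bp, with no other value, so the depth of the libraries is unknown here, replicates could not be compared, and merging can leave pieces of a few bp. Each line was assayed in 3 independent experiments, and these replicates are technical ones within them. Which of them the 3 labelled libraries of each line are is not given in the sources used here.

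Starts came from GENCODE version 44 lifted to GRCh37, whose chromosome lengths match hg19. Letters were read from the GRCh37 genome. Intervals overlapped with at least 1 bp shared. G4 motifs were sought without overlap on each strand. Like width means within 20 percent. Gene start means the first base of any transcript, and the canonical start is that of the transcript the annotation marks so. Scripts ran in Python 3.11.15 with numpy 2.4.6 and scipy 1.17.1 and were tested on simulated data. Intervals on the mitochondrial sequence were left out of sequence measures.

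All 10 genes are named. The MLX branch is named whole. The other lists are given by counts, by the genes that were high-confidence in one line and in no list of the other, and by the alphabetically leading gene called in both. HUWE1, SIN3B and NME1 were named after their values were seen. The members and lists were chosen with earlier results of these data known. Alternatives used the lower-confidence lists, a minimum width, protein-coding transcripts, interval centres, other windows and other motif definitions. Some sequence is not reported here.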

Additional observations from a re-analysis of the deposited data

How the results depend on the processing

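Of 52 alternatives to 9 counts and shares, 41 moved the value by at most 1.5 times (counts) or kept it inside its 95% Wilson interval (shares). With the lower-confidence lists, 8 genes had a HepG2 interval in place of 4, 8 had one in both lines, 8 had one within 1 kb upstream in HepG2, and 5 held a motif in a HepG2 interval in place of 2. With runs of at least 2 G that last count was 4. The share of motifs near starts that overlapped a K562 interval was 24.4% with the lower-confidence list, 5.45% near protein-coding transcripts only and 33.3% with an interval within 500 bp accepted, in place of 11.5%. For HepG2 it was 17.9%, 1.82% and 19.2%, in place of 6.41%. Over the motifs near all protein-coding genes, the lower-confidence shares were 11.9% in K562 and 9.45% in HepG2. No all-gene share is given for the other alternatives. The count of genes with a K562 high-confidence interval in the gene body or upstream was 7 in every alternative that kept that list. With the K562 lower-confidence list in its place the count was 9. No paired analysis was possible because the lists merge all replicates of a line and carry no replicate, and for the same reason no replicate could be left out. The replicate thresholds of the lines differ, and calls under a threshold are not seen. The depth is unknown, so no absence from a list can be read as a low signal.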

Other observations

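Around MYC, beyond the promoter, the lower-confidence intervals lay mostly on the downstream side. Between 2 and 500 kb from the canonical start, K562 had 10 lower-confidence intervals downstream and 0 upstream, and HepG2 had 4 downstream and 1 upstream. Neither line had a high-confidence interval in that range. The range was chosen after the values were seen, and no test was made.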
